A study of Mus musculus with 23 samples.

Results

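The mammalian mitochondrion has a ribosome of its own, the mitoribosome, which translates the small set of proteins encoded in the mitochondrial genome, all of them parts of oxidative phosphorylation. Its RNAs are transcribed in the mitochondrion, but every one of its proteins is encoded in the nucleus, made in the cytosol and imported. Some of these proteins descend from proteins of the bacterial ribosome and others occur only in mitochondria. Liver is rich in mitochondria, and its hepatocytes depend on oxidative phosphorylation for urea synthesis, glucose output and fat oxidation.

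The genes described are the mitochondrial ribosomal protein genes of mouse liver, chosen by name: protein-coding genes whose symbol is Mrps or Mrpl followed by a number and at most 1 letter. This rule found 78 of the 54838 genes in the count table, 29 named Mrps and 49 named Mrpl. By the position of the proteins in the mitoribosome, 26 belong to the small subunit and 51 to the large subunit, since some proteins first named for the small subunit lie in the large one. The protein of Mrps36, the remaining gene, belongs to the 2-oxoglutarate dehydrogenase complex of the citric acid cycle. Of the subunit genes, 16 small and 30 large subunit genes were classed as conserved from bacteria, and 10 small and 21 large subunit genes as specific to mitochondria. The latter include Mrps18a and Mrps18b, the further relatives of bacterial S18 beside Mrps18c.

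RNA was sequenced from livers of inbred C57BL/6J mice in 23 libraries. Mice received a recombinant protein at 1 µg per g of body weight, injected 3 times at intervals of 1 day, or vehicle. The groups were EPDR1 (ependymin-related protein 1, 4 libraries), FCN2 (ficolin-2, 4 libraries), FSTL3 (follistatin-like 3, 4 libraries) and a vehicle group (4 libraries) in batch 2, and LBP (lipopolysaccharide-binding protein, 3 libraries numbered 2, 3 and 4) and a second vehicle group (4 libraries) in batch 1. No genetic change or other treatment is given for any group, and the labels number the samples without saying whether each is an animal of its own, and the p-values then stand only for the spread among samples, some of which may be technical. Liver is bulk tissue here, so fewer cells of a type and less RNA per cell cannot be told apart.

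Total gene counts ran from 773499 to 21892416 per library (median 3712802). They ran from 9298871 to 10930800 in FSTL3 and, in the vehicle of batch 2, from 2517701 to 21892416. LBP replicate 2 stood apart from the other 22 libraries. Albumin, the main secreted protein of hepatocytes, made up 0.211% of its counts against 5.26% to 8.36% elsewhere, and 4 hemoglobin genes made up 0.165% against 0.00613% to 0.0321%. Results that rest on this library are given with and without it. Throughout, levels are CPM (counts scaled to library size with TMM), given as mean ± SD, and differences are log2 fold changes ± SE. A gene was called changed at a Benjamini-Hochberg adjusted p under 0.05 in edgeR's quasi-likelihood test over the 11969 genes that passed its filter on low counts.

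Promoters of many of these genes carry binding letters of the factors that tune mitochondrial gene expression: NRF1, the ETS factor GABP and YY1. RefSeq promoters (GRCm38.p6, 250 bases before to 50 bases after the start, 300 in all) were matched for 69 of the 78 genes, in 75 windows. The letters CCGGAAG, an ETS site, stood on either strand in 26 windows (34.7%), against 17.5% of all windows of 8981 tested genes. The NRF1 core GCGCATGC stood in 8 windows (10.7% against 5.09%) and the YY1 letters AAGATGGCG in 8 windows (10.7% against 3.11%). The E-box CACGTG, the site of the circadian factors ARNTL and CLOCK, stood in 7 windows (9.33% against 9.91%). These belong to 5 of the 69 genes, since overlapping windows of Mrpl2 hold the same site. The E-box and the ETS letters stand next to each other in Mrps18c without overlap, 1 base apart. A match is a description of letters and not of binding. The 6 stretches of 60 bases that follow are from genes that recur in the results: Mrpl22, Mrps18c and Mrpl18 were among the 12 genes with the smallest p after FSTL3, Mrpl3 changed least there, Mrps11 lies head to head with Mrpl46, and Mrpl32 was among the 3 highest after FCN2. Capitals mark the matched letters on the strand of the gene, on which a site may be read backwards.
Mrpl22 (chr11:58171595-58171654, +): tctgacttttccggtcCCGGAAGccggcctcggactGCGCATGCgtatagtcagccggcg
Mrps18c (chr5:100798573-100798632, +): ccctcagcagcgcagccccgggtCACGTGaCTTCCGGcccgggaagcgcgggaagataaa
Mrpl18 (chr17:12916282-12916341, -): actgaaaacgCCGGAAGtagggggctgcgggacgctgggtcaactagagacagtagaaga
Mrpl3 (chr9:105053208-105053267, +): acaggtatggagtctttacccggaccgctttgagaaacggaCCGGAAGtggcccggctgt
Mrps11 (chr7:78782997-78783056, +): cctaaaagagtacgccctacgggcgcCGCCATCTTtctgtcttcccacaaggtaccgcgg
Mrpl32 (chr13:14613052-14613111, -): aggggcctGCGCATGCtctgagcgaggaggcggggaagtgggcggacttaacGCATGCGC
The ETS letters occur both in genes that fell after FSTL3 (Mrpl22, Mrps18c, Mrpl18) and in Mrpl3, which was not called.

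Of the 78 genes, 75 passed the filter and were tested. The other 3 were at or near 0: Mrpl53 had no count in any of the 23 libraries, which allows a level of up to 0.0230 CPM (3 counts over all libraries, counting error only). Other genes' exons cover 88.0% of its exon bases (chr6:83109040-83109939, + strand), and the recorded counting command sets no option to assign reads shared by 2 genes. Mrpl23 had 0 to 13 counts per library and Mrps36 had 0 to 12. Both have pseudogenes in the table, with which reads can be shared. In all, 33 of the 78 genes have exon bases covered by another gene.

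Per length, the genes spanned a wide range of levels. Over the 22 libraries other than LBP replicate 2, the highest mean RPKM values (CPM per kilobase of exon) were 39.2 for Mrpl14, 34.9 for Mrpl50, 31.1 for Mrpl34, 31.0 for Mrpl18 and 30.0 for Mrpl16. All of these encode large subunit proteins, and Mrpl14 is the homolog of bacterial L14, which faces the small subunit and binds the assembly factor Malsu1. The lowest among tested genes were 1.90 for Mrps25, a small subunit protein specific to mitochondria, and 1.26 for Mrpl48. Exons of Nr2c2, on the opposite strand, cover 69.8% of the exon bases of Mrps25, so its level may be understated. Mrps36 stood at 0.419, Mrpl23 at 0.111 and Mrpl53 at 0.

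Summed over all 78 genes, the level was lowest after FSTL3. The sum was 1326 ± 24.7 CPM in FSTL3 (1292 to 1345, n = 4), 2266 ± 104 in the vehicle of batch 2 (2131 to 2364, n = 4) and 1753 ± 39.8 in the vehicle of batch 1 (1696 to 1780, n = 4). It was 2447 ± 134 in EPDR1 and 2315 ± 154 in FCN2, whose ranges (2266 to 2568 and 2136 to 2489) overlapped that of their vehicle. In LBP it was 1986 and 1935 in replicates 3 and 4 and 5646 in replicate 2. The FSTL3 libraries lay below every other library, and LBP replicate 2 above every other. As an unscaled share of all counts, the genes took 0.142% to 0.159% in FSTL3 and 0.212% to 0.230% in the vehicle of batch 2.

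**Figure D1:**
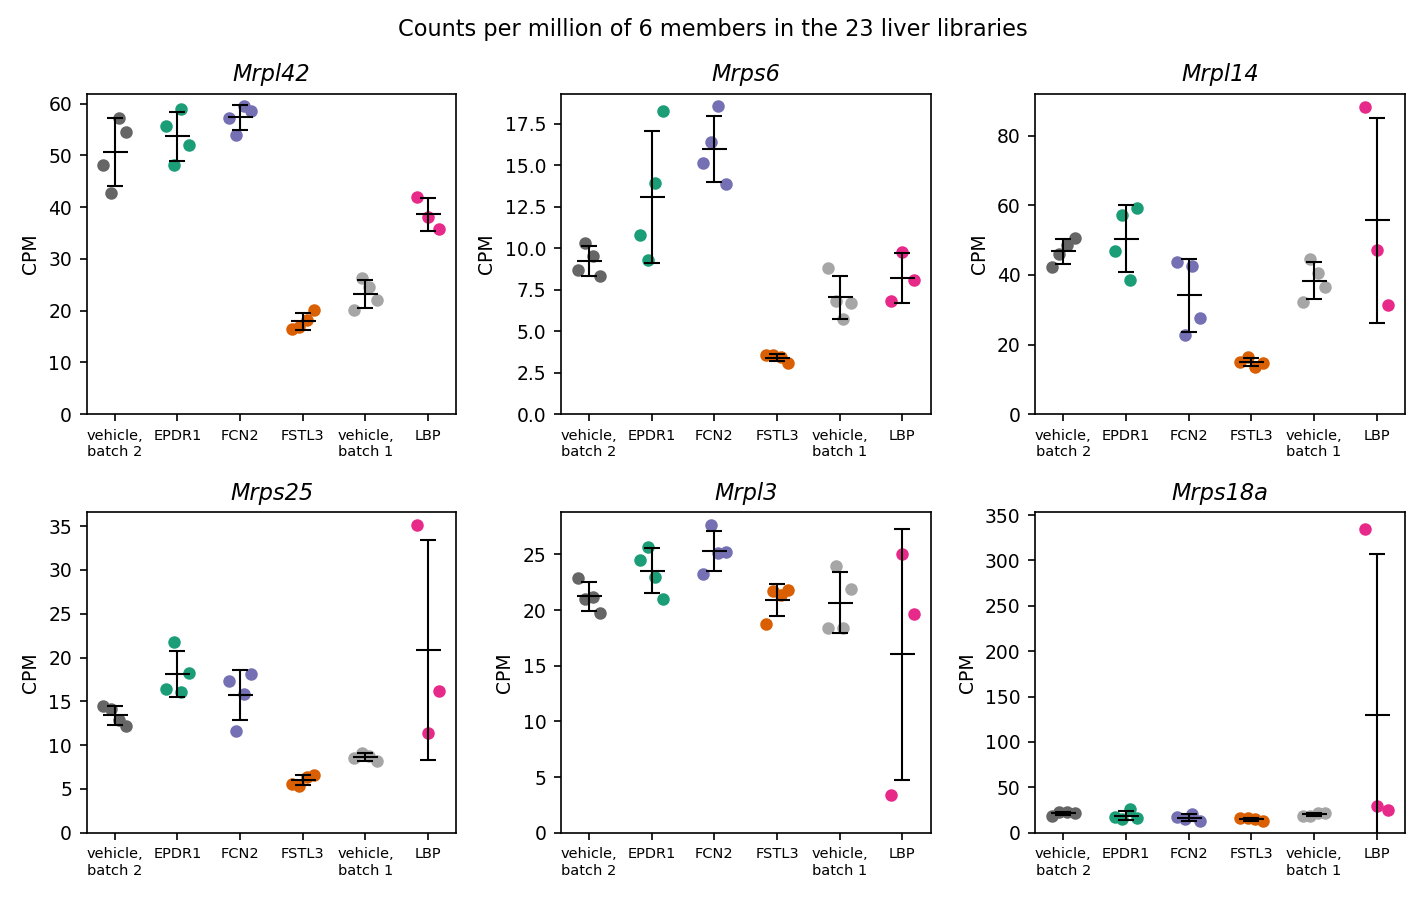
Level in CPM (vertical axes, each from 0) of 6 mitochondrial ribosomal protein genes by group (horizontal axis); points are libraries and bars are mean ± SD. Mrpl42, Mrps6, Mrpl14 and Mrps25 are lower in FSTL3 than in the vehicle of batch 2 without overlap, Mrpl3 overlaps, and Mrps18a reaches 334 CPM in LBP replicate 2 alone.

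After FSTL3, which binds and blocks activins, the genes were lower almost as a group. Of 75 tested genes, 42 fell and 0 rose against the vehicle of batch 2 (edgeR; 53 lower and 0 higher at an unadjusted p under 0.05; 50 lower with DESeq2 and 44 with limma-voom, 0 higher with either). Over all tested genes, 16% were called lower in this comparison and 39.2% were called in either direction. An unadjusted p under 0.05 was found for 5687 of all 11969 genes, in either direction (edgeR). DESeq2 called 18.5% of all genes lower, and limma-voom 16.4%. The median log2 fold change was -0.72, against 0.06 for all tested genes. All 75 values were negative, a count that was 63 once each library's trend with exon length was removed and 65 when the batch 1 vehicle was the control. In each FSTL3 library, 72 to 74 of the 75 genes lay below the mean of the vehicle of batch 2. The count was 56 to 62 in the single libraries of the vehicle of batch 1. In those of batch 2 it was 31 to 51, but these libraries make up that mean, so a middling count was set in advance. The like count over all genes was not taken.

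The fall spanned both subunits and both evolutionary classes. Of 16 conserved small subunit genes, 7 fell, with a median of -0.69 over the class. Of 10 mitochondria-specific small subunit genes, 5 fell (median -0.71). Among 29 tested conserved large subunit genes 20 fell (median -0.72), and among 20 tested mitochondria-specific large subunit genes 10 fell (median -0.78). In all, 12 of 26 small and 30 of 49 large subunit genes fell. A difference between the classes was not tested.

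**Figure D2:**
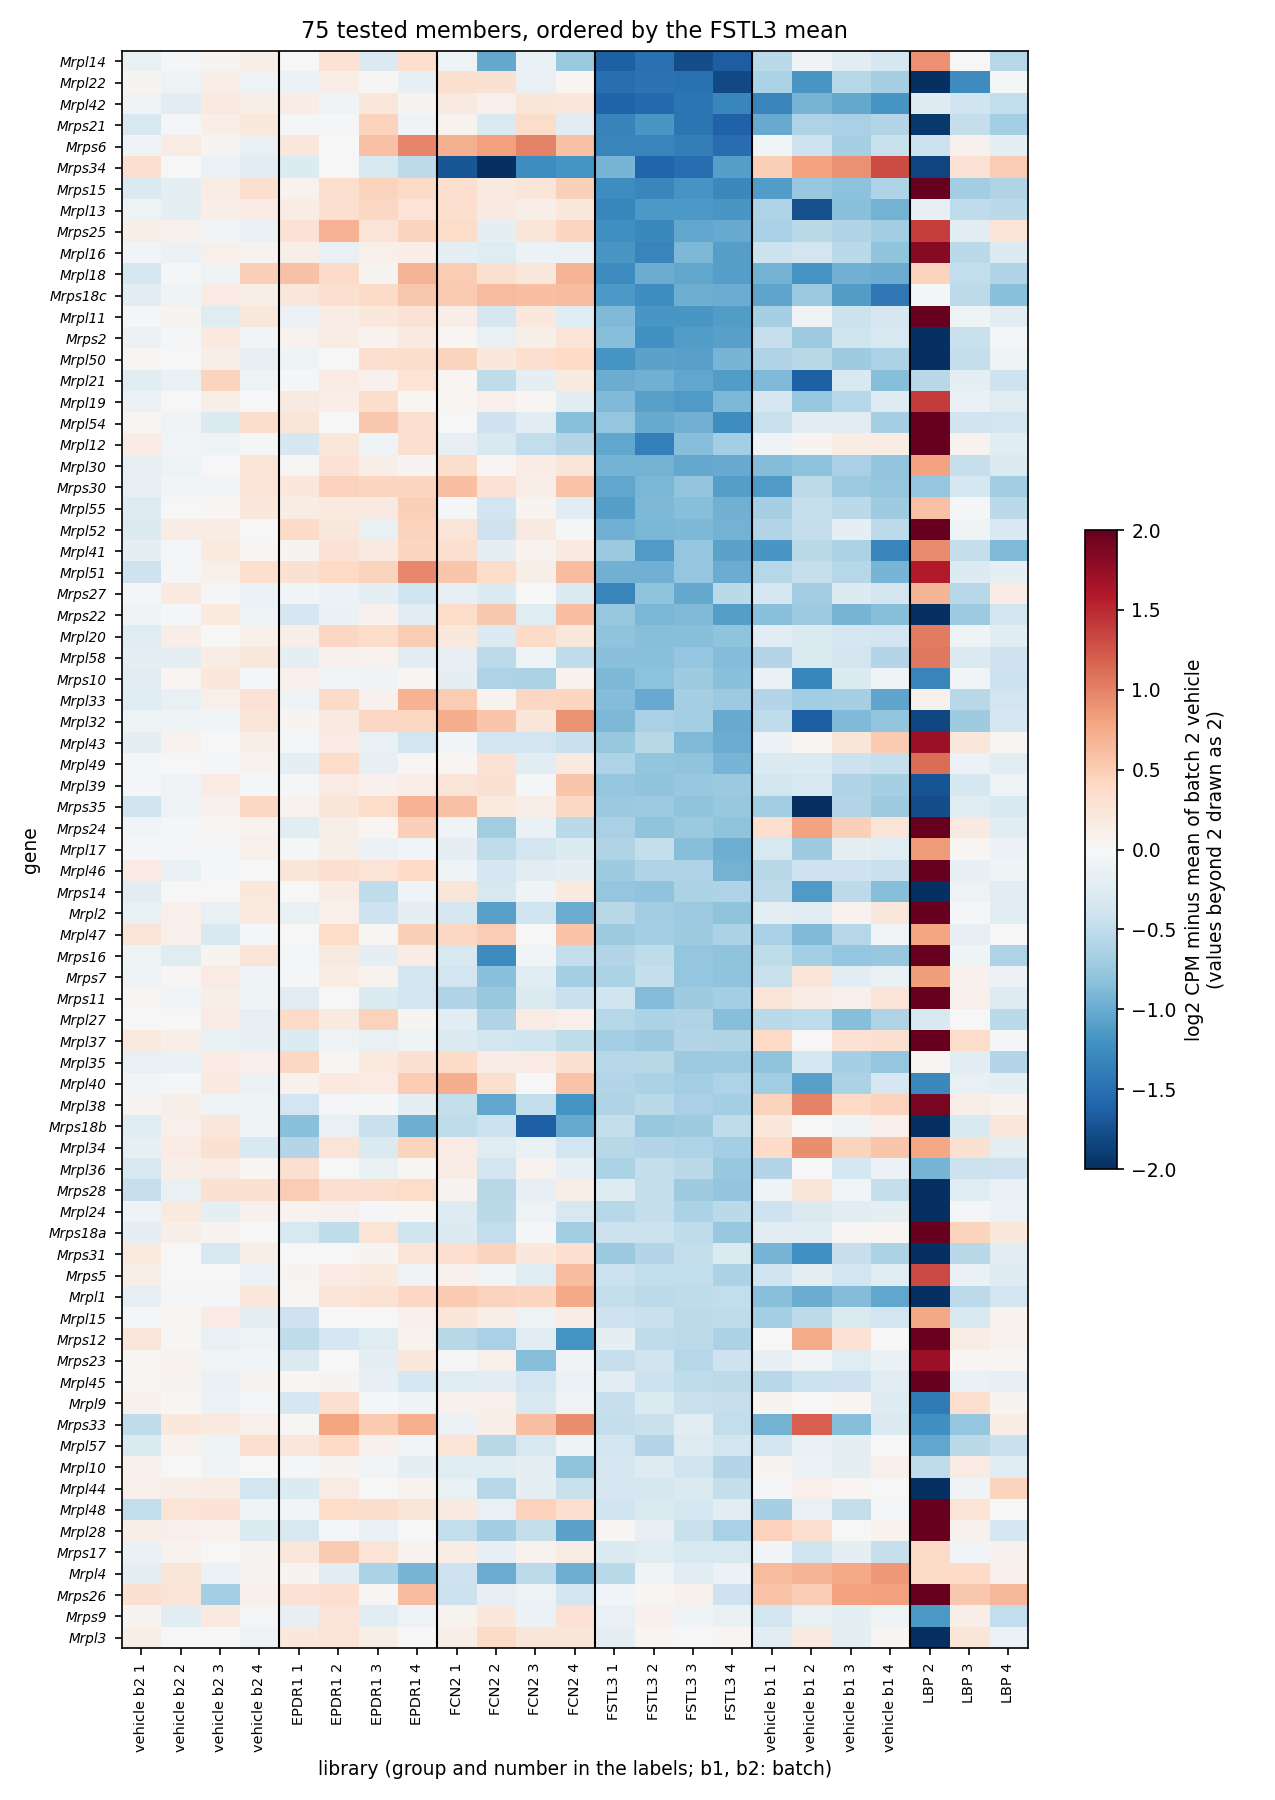
Log2 CPM of the 75 tested genes (rows, by their FSTL3 mean) in each of the 23 libraries (columns, by group), as the difference from the mean of the vehicle of batch 2; blue is lower and red is higher, with values beyond 2 drawn as 2. The FSTL3 columns are lower for 72 to 74 of the 75 genes, and LBP replicate 2 has the widest spread between genes (SD 2.05).

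Mrpl42, a large subunit protein specific to mitochondria (chr10:95480805-95501940, - strand), had the smallest p. It stood at 16.4, 16.9, 18.3 and 20.2 CPM in the FSTL3 libraries and at 48.1, 42.8, 57.3 and 54.5 in the vehicle of batch 2. The groups do not overlap, and the log2 fold change was -1.49 ± 0.14 (edgeR adjusted p = 5.76e-08). Levels were 48.04 to 59.0 CPM in EPDR1 and 54.002 to 59.5 in FCN2. In the vehicle of batch 1 they were 20.1, 26.3, 24.6 and 22.2 CPM, close to FSTL3.

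Among small subunit genes, Mrps6 (chr16:92058270-92112227, + strand), homolog of a bacterial protein of the platform, where mRNA leaves the subunit, had the smallest p. It stood at 3.58, 3.56, 3.43 and 3.08 CPM after FSTL3 against 8.72, 10.3, 9.55 and 8.33 in its vehicle (-1.44 ± 0.20, edgeR adjusted p = 6.23e-06). The 4 FSTL3 libraries were all below the vehicle libraries. Mrps18c encodes 1 of 3 mammalian homologs of bacterial S18, and is classed as conserved. Its level was 10.3, 9.64, 11.7 and 11.5 CPM after FSTL3 and 19.9, 21.8, 25.7 and 25.3 in the vehicle of batch 2 (-1.10 ± 0.16, edgeR adjusted p = 1.29e-05). Its paralogs were not called in the fit of all libraries: Mrps18a, whose protein lies in the large subunit, had -0.54 ± 0.50 and Mrps18b -0.63 ± 0.29. Their FSTL3 libraries still lay below those of the vehicle without overlap. As log2 CPM minus the vehicle mean, Mrps18a was at -0.76 to -0.43 after FSTL3 and -0.18 to 0.11 in the vehicle. Mrps18b was at -0.75 to -0.47 and -0.25 to 0.22. Mrps21, homolog of bacterial S21, was at 8.504 to 11.6 CPM after FSTL3 and 21.2 to 30.5 in its vehicle, again without overlap (-1.41 ± 0.21). Mrps25, with 69.8% of its exon bases covered by Nr2c2, fell from 12.1 to 14.4 CPM in the vehicle to 5.39 to 6.59 CPM (-1.17 ± 0.23).

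Large subunit genes included the largest falls. Mrpl14 (chr17:45686322-45698495, + strand), the highest gene per length, was at 14.9, 16.4, 13.6 and 14.8 CPM after FSTL3 against 42.3, 45.9, 48.6 and 50.7 (-1.65 ± 0.25, edgeR adjusted p = 1.68e-05). Mrpl22, whose bacterial homolog lines the exit tunnel of the nascent peptide, was at 6.25, 6.43, 6.33 and 5.09 CPM against 18.9, 17.02, 19.9 and 17.004 (-1.59 ± 0.28). Mrpl13, a conserved protein of the large subunit body, fell by 1.195 ± 0.17 on the log2 scale. Mrps30, which despite its name lies in the large subunit, fell by 0.97 ± 0.16. Mrpl18, homolog of the bacterial protein that binds 5S ribosomal RNA, fell by 1.13 ± 0.21, from 37.1 to 65.6 CPM in the vehicle to 19.7 to 23.6 CPM. Mrpl21 fell by 1.05 ± 0.20 and Mrpl55 by 0.97 ± 0.18. These 12 genes had the smallest p and were called in each of the 23 fits that left out 1 library, and 36 of the 42 called genes were. The calls of Mrpl34, Mrpl43, Mrps35, Mrps15, Mrpl15 and Mrpl24 were lost in at least 1 such fit, that of Mrpl43 without FSTL3 replicate 4 and that of Mrps35 without replicate 4 of the vehicle of batch 2.

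A few genes stayed near the vehicle. Mrpl3, homolog of a bacterial protein that reaches toward the peptidyl transferase centre, was at 18.7, 21.7, 21.3 and 21.8 CPM after FSTL3 and at 22.9, 21.02, 21.2 and 19.8 in the vehicle (-0.02 ± 0.23, edgeR adjusted p = 0.952). Mrps9 had -0.07 ± 0.18 (edgeR adjusted p = 0.804) and Mrps26 -0.17 ± 0.29 (edgeR adjusted p = 0.686), with overlapping libraries in both groups. These signs are not firm, since those of Mrpl3 and Mrps9 turned when the batch 1 vehicle was the control (0.04 and 0.13).

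The spread in the fit was set in part by LBP replicate 2. Without it 68 of the 75 genes were called lower after FSTL3 and 0 higher, where 25.4% of all genes were called lower. The median was -0.73.

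**Figure D3:**
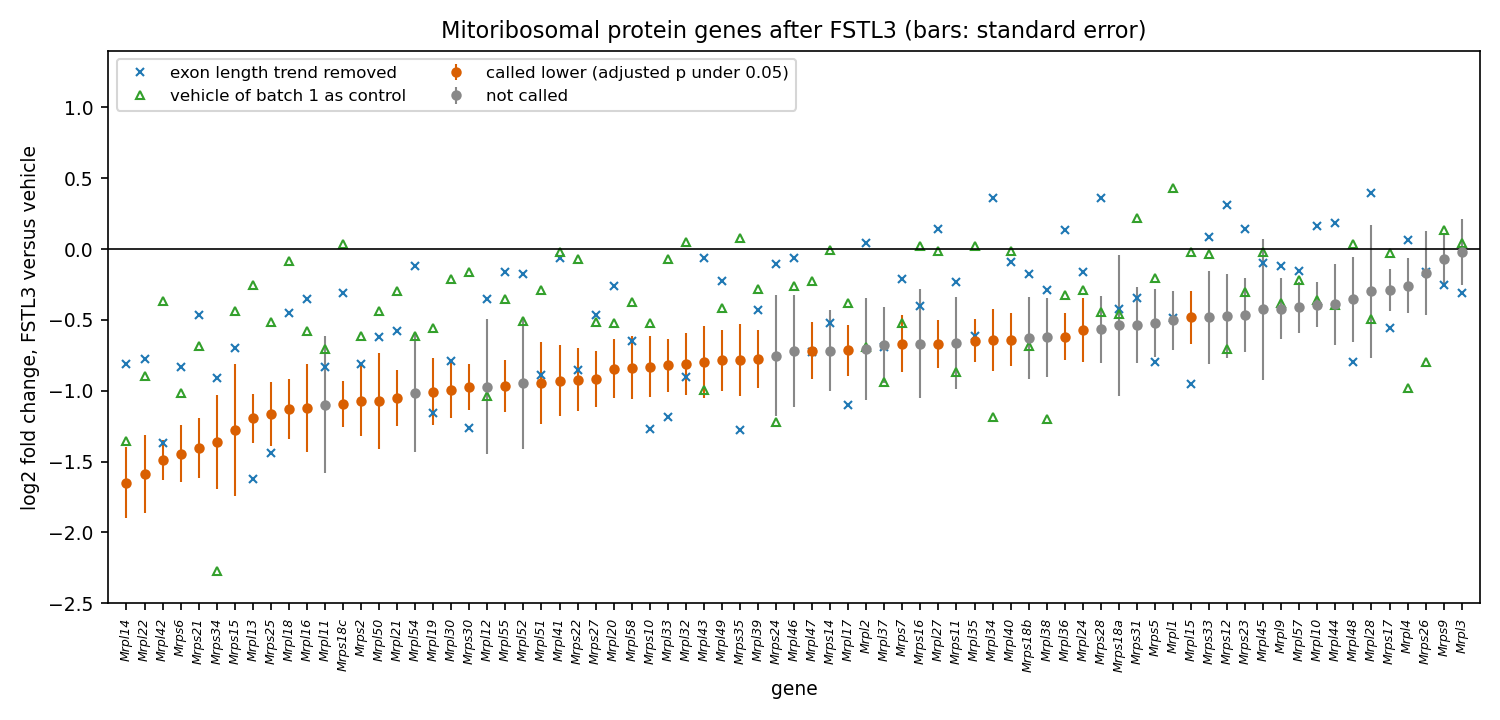
Log2 fold change of FSTL3 against the vehicle of batch 2 (vertical axis) for each of the 75 tested genes, sorted along the horizontal axis; circles with bars are values ± SE (orange where called lower, grey where not), crosses the values with the exon length trend removed and triangles those against the vehicle of batch 1. Every circle lies below 0, from -1.65 for Mrpl14 to -0.02 for Mrpl3, and some crosses and triangles lie above it.

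Exon length moved with the FSTL3 difference in all genes. The mitochondrial ribosomal protein genes are short, with a median exon length of 2255 bases (607 to 8631) against 4310 for all tested genes. Over all 11969 genes the Spearman correlation of the FSTL3 log2 fold change with exon length was 0.458, and over the 75 genes it was 0.214, both as descriptions across genes of the same libraries. For genes of at most 1000 bases the median fold change was -0.85 over all genes and -0.97 over the 8 mitochondrial ribosomal protein genes. At 2000 to 3000 bases it was -0.31 over all genes and -0.67 over the 17 genes. Above 6000 bases it was 0.54 over all genes and -0.75 over the 12 genes. The background thus ran from negative to positive with length, while the medians of the genes stayed between -0.97 and -0.67 in the 7 length classes (7 to 17 genes each).

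With each library's trend on exon length removed, 25 genes were called lower and 0 higher (12.1% of all genes called lower), with a median of -0.40. With the GC and length trends both removed 26 were called lower (13.4% of all genes), with a median of -0.41. Of the 42 calls, 23 were among the 25. Mrpl42 (-1.37), Mrpl13 (-1.62), Mrps25 (-1.44) and Mrps30 (-1.26) were still called with the length trend removed. Mrps18c (-0.31, edgeR adjusted p = 0.121), Mrps21 (-0.46, edgeR adjusted p = 0.176), Mrpl22 (-0.78, edgeR adjusted p = 0.0765) and Mrpl55 (-0.16) were not. The part of length in the result was not tested beyond this.

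**Figure D4:**
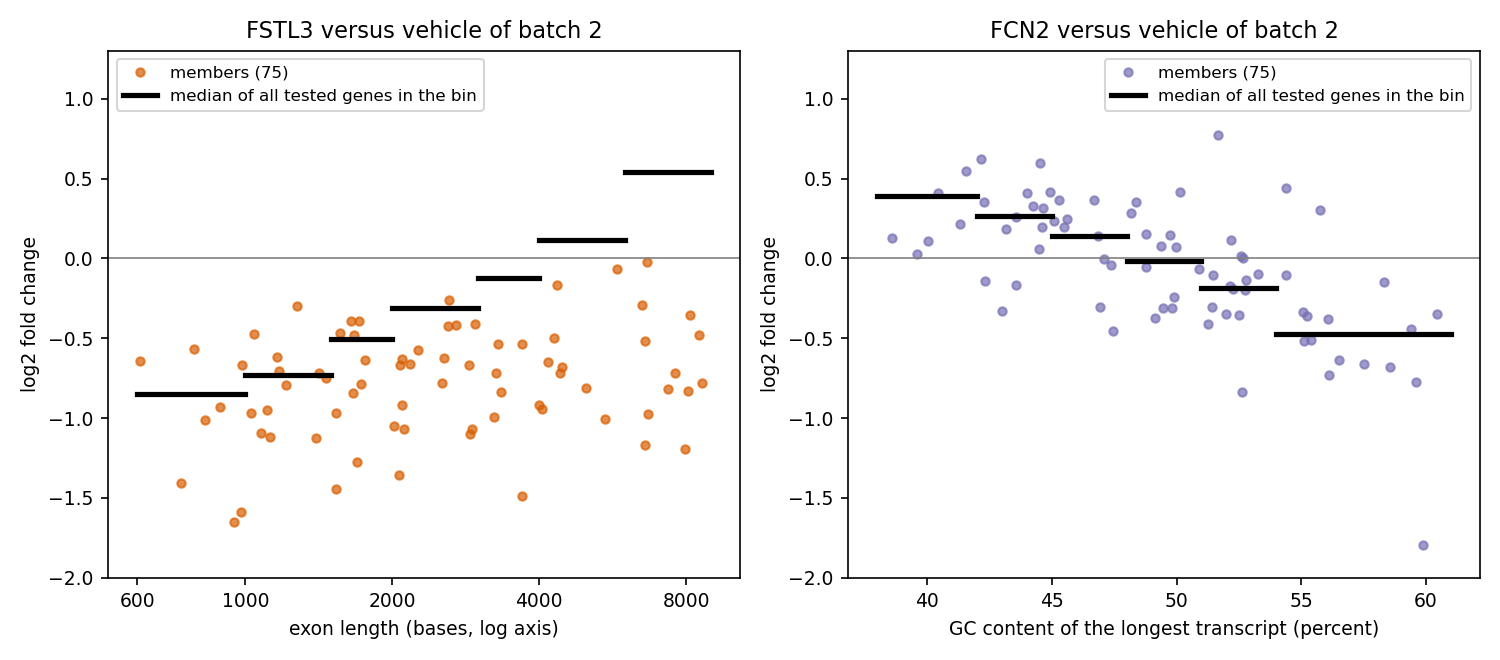
Left, log2 fold change of FSTL3 against the vehicle of batch 2 (vertical axis) by exon length in bases (log axis); right, that of FCN2 against the same vehicle by GC content of the longest transcript in percent; points are the 75 genes and black bars are medians of all tested genes in classes of length or GC. On the left the bars rise from -0.85 to 0.54 while the points stay below 0, and on the right points and bars fall together.

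Of the 32 tested genes whose exon bases another gene covers in part, 21 fell (median -0.79), and of the 43 without overlap 21 fell (median -0.71). With ETS letters in the window 14 of 25 genes fell (median -0.71), and without them 23 of 41 (median -0.72). With the NRF1 core 5 of 8 fell (median -0.75), and without it 32 of 58 (median -0.72). With the YY1 letters 4 of 8 fell (median -0.67), and without them 33 of 58 (median -0.75). With the E-box 3 of 5 fell (median -0.71), and without it 34 of 61 (median -0.72). The differences between these splits were not tested.

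Markers of other cell types and of the circadian clock also differed in the FSTL3 libraries. Of 6 markers of sinusoidal endothelium, 4 were higher, and their summed share was 0.0533% to 0.0637% of counts in FSTL3, against 0.0146% to 0.0183% (vehicle of batch 2) and 0.0237% to 0.0336% (vehicle of batch 1). None of the 6 was at 0 in any library. Of 8 Kupffer cell markers, 3 were lower and 0 higher, at 0.0155% to 0.0181% of counts in FSTL3 and 0.0149% to 0.0343% in the vehicle of batch 2. Of 8 hepatocyte markers 2 were lower and 0 higher, with shares of 9.14% to 10.01% and 8.72% to 9.63%. Of 6 stellate cell markers 1 was higher and 0 lower, and their share of 0.0357% to 0.0454% in FSTL3 lay above the 0.0222% to 0.0323% and 0.0199% to 0.0273% of the vehicles of batches 2 and 1. Arntl (Bmal1), which drives the clock, was at 3.44 ± 1.46 CPM in FSTL3, 2.54 ± 1.68 in the vehicle of batch 1 and 25.4 ± 7.10 in that of batch 2 (n = 4 each). Dbp, a clock output, was at 32.3 ± 7.45, 73.5 ± 15.01 and 5.14 ± 4.86 CPM, and Per3 at 47.1, 27.1 and 4.61 CPM. FSTL3 and the vehicle of batch 1 were thus low in Arntl and high in Dbp and Per3, and the vehicle of batch 2 was the reverse. Nr1d1, a clock repressor, did not follow this split: it was at 37.6 ± 5.05 CPM in FSTL3, 51.6 ± 19.2 in the vehicle of batch 1 and 34.04 ± 4.27 in that of batch 2, and was not called after FSTL3 (0.15 ± 0.31, edgeR adjusted p = 0.745). The part of these markers in the fall of the mitochondrial ribosomal protein genes was not tested.

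The vehicles of the batches themselves differed in these genes. Against the vehicle of batch 2, that of batch 1 had 18 of 75 genes lower and 1 higher, where 5.41% of all genes were called lower and 6.76% higher. The median was -0.41. Without LBP replicate 2, 38 were lower (14.9% of all genes) and 6 higher (15.4% of all genes): Mrpl4, Mrps34, Mrpl34, Mrps26, Mrpl38 and Mrps24. The genes lower in batch 1 were 10 conserved and 4 mitochondria-specific genes of the large subunit, and 2 and 2 of the small. The smallest p belonged to Mrpl42 (-1.13 ± 0.15) and Mrps18c (-1.13 ± 0.18, edgeR adjusted p = 0.00036), whose level of 8.45 to 13.7 CPM in the vehicle of batch 1 lay below the 19.9 to 25.7 CPM of batch 2. Mrpl18 (-1.04), Mrpl13 (-0.95), Mrpl1 (-0.93), Mrpl32 (-0.86), Mrps22 (-0.85), Mrps30 (-0.81), Mrpl30 (-0.78), Mrpl33 (-0.75), Mrpl21 (-0.75) and Mrpl35 (-0.67) were also lower. Mrpl4, whose bacterial homolog lines the peptide exit tunnel, was the gene called higher. It stood at 17.7, 18.3, 19.2 and 20.7 CPM in batch 1 and at 9.96, 13.4, 10.4 and 11.8 in batch 2, without overlap (0.72 ± 0.20, edgeR adjusted p = 0.021). The highest value, not called, was that of Mrps34 (0.92 ± 0.33, edgeR adjusted p = 0.071), and Mrps26 (0.63) was not called either.

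This comparison shares the vehicle of batch 2 with the FSTL3 comparison. Side by side, Mrpl42 had -1.49 after FSTL3 and -1.13 between vehicles, Mrps18c -1.10 and -1.13, and Mrpl14 -1.65 and -0.30. Measured against the vehicle of batch 1, which belongs to another batch, FSTL3 had 13 of 75 genes lower and 0 higher, with a median of -0.38. Over all genes 13.2% were called lower, not far below the share of the 75, and 18.7% higher. Of the 42 genes called lower against the vehicle of batch 2, 7 were among the 13. Those 13 included Mrps34 (-2.28, edgeR adjusted p = 1.6e-05), Mrpl14 (-1.35, edgeR adjusted p = 0.000243), Mrpl34 (-1.18), Mrps6 (-1.01, edgeR adjusted p = 0.000839) and Mrpl4 (-0.98). Mrpl42 (-0.36, edgeR adjusted p = 0.0617) and Mrps18c (0.03, edgeR adjusted p = 0.908) were not called. In that comparison protein and batch cannot be told apart.

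After LBP, which hands bacterial lipopolysaccharide to its receptor complex, 18 of 75 genes were called higher than in the vehicle of batch 1 and 0 lower (edgeR; 36 higher and 0 lower at an unadjusted p under 0.05). Over all genes 7.7% were called and 6.73% were called higher, and 2725 of 11969 had an unadjusted p under 0.05 (edgeR). With DESeq2 17 genes were higher (8.59% of all genes), and with limma-voom 0 (0.0167%). These calls rest on LBP replicate 2: without it 1 gene was called, Mrpl42, where 0.515% of all genes were called higher. The median over the 75 genes was 0.49 with the library and 0.21 without.

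The genes with the highest values were by far highest in replicate 2. Mrps18a was at 334 CPM there (295 counts) and at 29.3 and 24.7 in replicates 3 and 4, against 18.4, 18.3, 21.9 and 22.2 in the vehicle of batch 1 (2.59 ± 0.55, edgeR adjusted p = 0.0107; 0.39 without the library). Mrpl45, which helps tether the mitoribosome to the inner membrane, was at 310.5, 22.5 and 22.1 CPM (2.58, and 0.25 without the library). Mrpl12, of the stalk that recruits translation factors, was at 504, 49.5 and 40.3 CPM against 44.2 to 52.5 in the vehicle (1.96, and -0.15 without the library). Mrpl11, of the base of that stalk, was at 375, 32.5 and 29.9 CPM (2.39). Of the other calls, Mrpl52 (2.23), Mrps15 (2.196), Mrpl46 (1.89), Mrps16 (1.71), Mrpl51 (1.19), Mrps25 (1.15) and Mrpl30 (0.87) were called with replicate 2 and not without it. Some of these were above every vehicle library in all 3 LBP libraries. Mrps25 was at 35.1, 11.4 and 16.1 CPM in replicates 2, 3 and 4 against 8.16 to 9.13 in the vehicle, Mrpl30 at 109.9, 45.2 and 51.1 against 34.3 to 39.9, and Mrpl51 at 90.6, 24.7 and 26.1 against 15.7 to 21.7. Other genes were low in that library: Mrpl50 was at 4.53 CPM in it and at 58.9 and 77.5 in the others. The lowest values of the comparison, none called, were those of Mrps34 (-0.77), Mrpl4 (-0.47) and Mrpl57 (-0.42).

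Marker shares of replicate 2 also differed. Of 11 pancreatic acinar markers, 8 were tested and 5 were higher after LBP. Their summed share was 0.124% in replicate 2, 0.0733% in replicate 4 and 0.00245% in replicate 3, against 0.000909% to 0.0109% in the vehicle of batch 1. Amy2a5 was at 0 in all libraries. Hepatocyte markers made up 2.03% of counts in replicate 2 and 7.76% to 11.2% elsewhere. Their part in the result was not tested.

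Mrpl42 was at 41.9, 38.1 and 35.8 CPM in LBP replicates 2, 3 and 4 and at 20.1 to 26.3 CPM in the vehicle of batch 1. The groups do not overlap, and replicate 2 did not stand apart. The log2 fold change was 0.73 ± 0.16 (edgeR adjusted p = 0.0115) with the library and 0.68 ± 0.15 (edgeR adjusted p = 0.0282) without, and the gene was called in all 23 fits that left out 1 library. The call was kept with DESeq2 (adjusted p = 0.000837). In edgeR it was kept with DESeq2 size factors (adjusted p = 0.00948), protein-coding nuclear genes alone (0.0111) and a filter of 5 CPM in 4 libraries (0.0109). It was also kept with the GC trend (edgeR adjusted p = 0.02), the length trend (0.012) or both (0.025) removed. With the length trend removed and without LBP replicate 2 it was kept too (edgeR adjusted p = 0.0288). The call was lost under other settings. The edgeR adjusted p was 0.55 with only the libraries compared and 0.21 without a filter on low counts. It was 0.133 with the replicate number as a block, and 0.215 with the block and both trends removed. Without LBP replicate 2 and with both trends removed it was 0.172, and that of limma-voom was 0.082. Together with Mrpl15, Mrpl16, Mrpl18, Mrpl30, Mrpl51, Mrps15 and Mrps25, it was called higher after LBP and lower after FSTL3 or between the vehicles. The LBP comparison and that of the vehicles share the vehicle of batch 1 with opposite sign, and the other 7 genes were not called after LBP without replicate 2, so nothing is read from this.

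**Figure D5:**
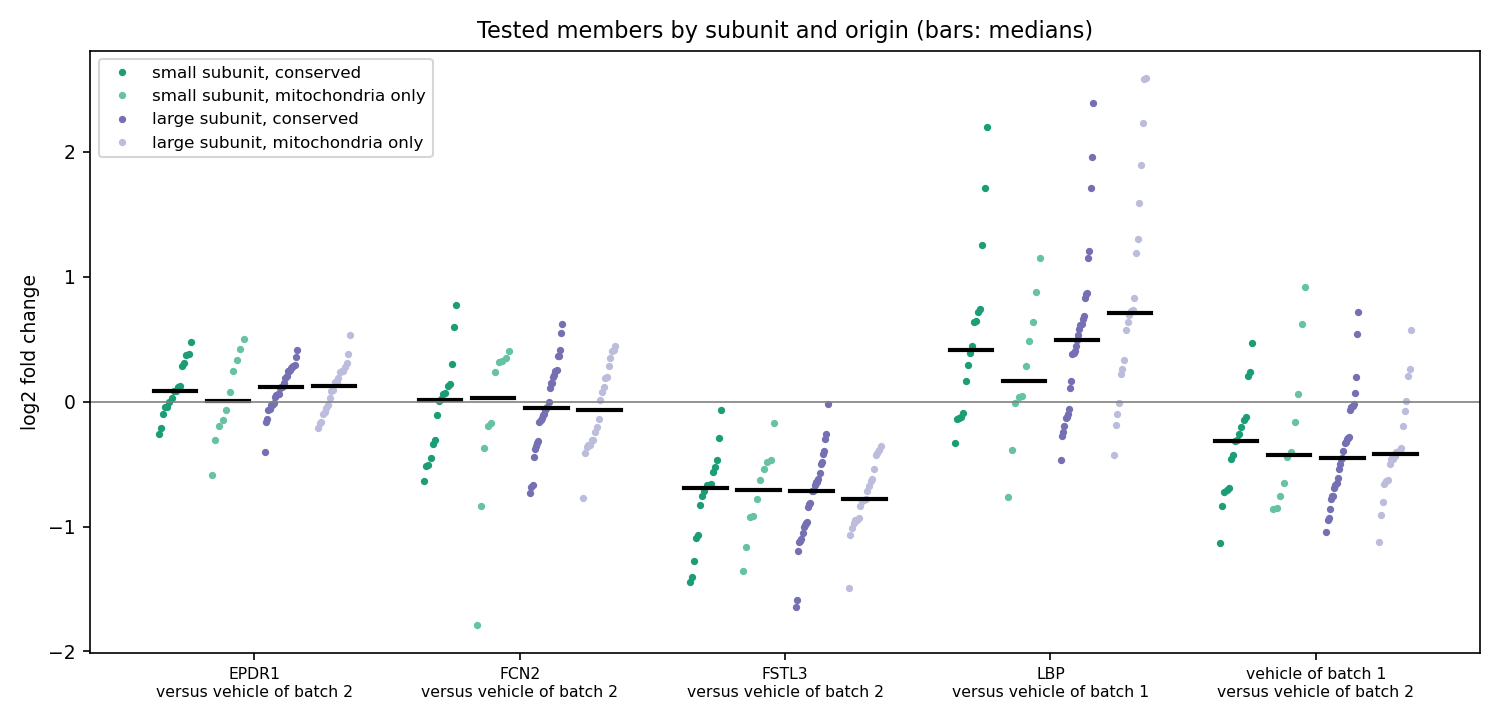
Log2 fold changes (vertical axis) of the 75 tested genes in 5 comparisons (horizontal axis), split by colour into conserved and mitochondria-specific genes of the small and large subunit; each point is a gene and each bar a class median. The FSTL3 medians of the 4 classes run from -0.78 to -0.69, and the LBP points spread upward with LBP replicate 2 included.

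EPDR1 and FCN2, both of batch 2, left the genes near their vehicle as a group. After EPDR1 0 of 75 genes were called (edgeR; 3 at an unadjusted p under 0.05, all higher; 0 with DESeq2 and 0 with limma-voom), and 0% of all genes were. Over all genes, 493 of 11969 had an unadjusted p under 0.05 (edgeR). The median over the 75 genes was 0.09. The highest values were those of Mrpl51 (0.53), Mrps33 (0.50) and Mrps6 (0.48), and the lowest those of Mrps18b (-0.59), Mrpl4 (-0.41) and Mrps34 (-0.30). After FCN2 1 gene was lower and 0 higher (edgeR; 6 in each direction at an unadjusted p under 0.05; 6 higher and 3 lower with DESeq2, 1 and 1 with limma-voom), where 0.81% of all genes were called and 0.652% were called lower. Over all genes DESeq2 called 4.24% higher and 3.23% lower, and limma-voom 0.326% and 0.978%. An unadjusted p under 0.05 was found for 2069 of all 11969 genes (edgeR). The median over the 75 genes was -0.04.

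The gene lower after FCN2 was Mrps34, a mitochondria-specific small subunit protein needed for the stability of that subunit (chr17:24895116-24897502, + strand). It stood at 1.25, 0, 1.79 and 1.88 CPM (8, 0, 6 and 8 counts) after FCN2 against 5.73, 4.55, 4.15 and 3.82 in its vehicle, and at 3.10 to 4.48 CPM in EPDR1 (-1.79 ± 0.40, edgeR adjusted p = 0.0395). The groups do not overlap, but the counts are few, and exons of Mapk8ip3 and Nme3 cover 77.8% of its exon bases. It was called in 11 of the 23 fits that left out 1 library and not once the GC trend was removed (edgeR adjusted p = 0.576). It was also low after FSTL3 (1.39 to 2.297 CPM, -1.36 ± 0.33, called) and high in the vehicle of batch 1 (6.36 to 11.4 CPM).

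Without LBP replicate 2 the FCN2 comparison called 8 genes higher (8.81% of all genes) and 10 lower (10.1% of all genes). The higher ones were Mrps6, Mrpl32, Mrps18c, Mrpl1, Mrpl40, Mrpl18, Mrps30 and Mrpl50, and the lower ones Mrps34, Mrps18b, Mrpl38, Mrpl4, Mrpl28, Mrpl2, Mrps12, Mrps11, Mrps7 and Mrpl37. In the fit of all libraries Mrps6 had 0.77 ± 0.20 (edgeR adjusted p = 0.058), Mrpl32 0.63 and Mrps18c 0.60, and the lowest after Mrps34 were Mrps18b (-0.84) and Mrpl38 (-0.77). Mrps6 was at 15.1, 16.4, 18.5 and 13.9 CPM after FCN2, above the 8.33 to 10.3 CPM of the vehicle.

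These differences ran with GC content. Over all 11969 genes the Spearman correlation of the FCN2 log2 fold change with GC was -0.648, and over the 75 genes -0.634. Genes above 54% GC had a median of -0.47 over all and -0.44 over 17 mitochondrial ribosomal protein genes. From 42% to 45% GC the medians were 0.27 and 0.29 (14 genes). With the GC trend removed 0 genes were called (edgeR, all libraries), and 7 of the 75 had an unadjusted p under 0.05. Over all genes, 865 of 11969 had such a p in that fit. Between the vehicles the correlation with GC was 0.509 over all genes and 0.528 over the 75, and after EPDR1 it was -0.285 and -0.340. After FSTL3 it was -0.184 and -0.033.

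FCN2 and EPDR1, compared directly, differed in 0 of 75 genes (edgeR; 1 higher and 5 lower after FCN2 at an unadjusted p under 0.05; 0 with DESeq2 and 0 with limma-voom), and in 0% of all genes. Over all genes, 1097 of 11969 had an unadjusted p under 0.05 (edgeR, all libraries). Without LBP replicate 2 Mrps22 was higher after FCN2 (2.47% of all genes called higher), and Mrps34, Mrpl38, Mrpl54 and Mrpl46 were lower (2.26% called lower). Mrps34 had the lowest value (-1.49), followed by Mrpl54 (-0.63) and Mrps26 (-0.61). Mrps22 had the highest (0.50), followed by Mrpl32 (0.36) and Mrpl1 (0.30).

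Genes that work with the mitoribosome were also measured after FSTL3, in which 23.2% of all genes were called higher. Of 5 mitoribosomal proteins with other names, Aurkaip1 (-0.98) and Chchd1 (-1.24) fell. Chchd1 was at 17.8 to 19.3 CPM after FSTL3 and 39.1 to 48.6 in its vehicle. Dap3 (-0.18), Ptcd3 (0.72) and Gadd45gip1 (0.17) were not called. Of 12 mitochondrial translation factors, 3 fell and 1 rose (median -0.34): the recycling factor Mrrf (-0.73), Mtrf1 (-0.81) of the release factor family and Oxa1l (-0.45), which inserts new proteins into the inner membrane, fell, and the elongation factor Guf1 rose (0.42).

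Of 24 assembly and rRNA modification genes 6 fell and 1 rose (median -0.24). Malsu1, the partner of Mrpl14, fell by 0.87 ± 0.22 on the log2 scale, Rpusd4, a pseudouridine synthase, by 0.96, and Ngrn by 0.64, while the helicase Dhx30 rose (0.61). Of 17 mitochondrial aminoacyl-tRNA synthetases 2 rose, Mars2 (1.31) and Wars2 (0.67), and 2 fell, Lars2 (-4.18 ± 0.56) and Yars2 (-0.91). Lars2 was at 30.5 to 52.4 CPM after FSTL3 and at 710.4 to 784 in its vehicle. Of 13 genes of mitochondrial transcription and mRNA handling 3 rose, the RNA polymerase Polrmt (0.55) and the DNA polymerase subunits Polg (0.80) and Polg2 (0.76), and Hsd17b10, a subunit of mitochondrial RNase P, fell by 0.97. Of 9 nuclear regulators of mitochondrial biogenesis 3 rose and 0 fell (median 0.72): Nrf1 (0.91), Gabpa (1.00) and the coactivator Ppargc1a (1.17), at 13.7 to 30.6 CPM against 4.98 to 13.9, with a slight overlap. The values of all these partner lists are with no exon length trend removed. In that fit all genes above 6000 exon bases had a median of 0.54, and those of up to 1000 bases -0.85. The part of exon length in the changes of the partner genes was not tested.

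For comparison, 34 of 64 cytosolic ribosomal protein genes fell after FSTL3 and 0 rose (median -0.95), and 35 of 75 nuclear oxidative phosphorylation genes fell and 1 rose (median -0.84). Of 13 protein genes of the mitochondrial genome, the templates that mitoribosomes translate, 7 were tested and all 7 fell (median -3.30). Protein-coding mitochondrial transcripts made up 1.97% to 2.13% of counts in FSTL3, against 7.36% to 11.8% (vehicle of batch 2) and 4.15% to 5.26% (vehicle of batch 1). The 2 ribosomal RNAs of the mitoribosome itself, mt-Rnr1 and mt-Rnr2, made up 5.05% to 10.1% in FSTL3, against 0.809% to 1.54% and 0.631% to 0.692%. All mitochondrial transcripts, RNAs of every kind, made up 7.08% to 12.1%, 8.17% to 13.4% and 4.79% to 5.90%. Within the mitochondrial RNA, the FSTL3 libraries thus held more ribosomal and less protein-coding RNA than either vehicle, and the part of this in the result was not tested. The medians of the cytosolic ribosomal and oxidative phosphorylation lists lie below that of the mitochondrial ribosomal protein genes (-0.72), all with no exon length trend removed. Over all genes the median in this comparison was -0.85 at up to 1000 exon bases and -0.73 at 1000 to 1500. A difference between the lists, and the part of exon length in it, was not tested.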

How the data were processed

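Raw read counts per gene from the 23 libraries were used as deposited. Per the labels' protocols, 800 ng of total RNA went into each KAPA Hyper-prep library, read in pairs on a HiSeq 4000. Per the submitters' processing notes, STAR 2.6.0c was the aligner and GRCm38 the genome. Per the file headers, exons of Ensembl release 95 were counted with featureCounts 1.6.3, with no strand, pairing or multi-mapping option set. Each column was mapped to a sample by its name, and groups were taken from the labels.

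After filterByExpr and TMM scaling, edgeR 4.0.16 (quasi-likelihood, robust; R 4.3.3) was fitted to all 23 libraries at once, with group means. Each protein was tested against its own batch's vehicle, the vehicles with each other and FCN2 with EPDR1. P-values were adjusted by Benjamini-Hochberg over all 11969 genes tested. Exon length is that of the deposited table, and GC content is that of the longest transcript in GENCODE M21. The script was tested on simulated data. No duplicate library was found among 33 replicate pairs, whose counts differed with a chi-square of at least 2.27 per degree of freedom.

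The members and the other gene lists were chosen with earlier results of these data known. The genes named are, per comparison, up to 12 called genes with the smallest p and the 3 highest and 3 lowest fold changes; the 5 highest and 5 lowest by mean RPKM over 22 libraries; genes not tested; up to 4 called genes with the smallest p per other list; and genes called in opposite directions in 2 comparisons. Genes named beyond this rule (flagged genes, calls lost or gained under another setting, paralogs of Mrps18c, Mrps11, and untested or uncalled genes of the 5 proteins with other names) were chosen after their values were seen.

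Alternatives were DESeq2 1.42.0, limma-voom (limma 3.58.1), DESeq2 size factors, protein-coding nuclear genes alone, no filter, a filter of 5 CPM in 4 libraries, only the libraries compared, a replicate block, GC and exon length trends removed per library (LOWESS, span 0.3), the vehicle of batch 1 as control of FSTL3, and leaving out each library. Removal of trends without LBP replicate 2 was added after seeing the data.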

Additional observations from a re-analysis of the deposited data

Results flagged for a closer look

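In 12 of 190 groups of 4 libraries examined, 1 library's level of a named gene lay far from the other 3, relative to the range of its group. Chance alone gives such a gap in about 1 in 20 groups. In EPDR1, Mrpl55 was at 22.05 CPM in replicate 4 against 17.4 to 17.9 in the others, and Mrps21 at 36.31 CPM in replicate 3 against 25.1 to 25.8. In FSTL3, replicate 1 was apart for Mrpl11 (18.74 CPM against 15.4 to 15.9), Mrpl13 (23.61 CPM against 26.1 to 26.4) and Mrpl3 (18.74 CPM against 21.3 to 21.8), and replicate 4 for Mrpl22 (5.086 CPM against 6.25 to 6.43). In the vehicle of batch 1, Mrpl38 was at 84.46 CPM in replicate 2 against 56.0 to 58.0, Mrps33 at 6.848 CPM in the same replicate against 1.41 to 2.33, and Mrps21 at 13.08 CPM in replicate 1 against 16.8 to 17.5. Replicate 2 of that group has the fewest counts of all libraries (773499). In the vehicle of batch 2, Mrpl21 was at 29.48 CPM in replicate 3 against 18.7 to 20.1, Mrpl45 at 22.42 CPM in the same replicate against 25.2 to 25.7, and Mrpl32 at 43.03 CPM in replicate 4 against 33.9 to 34.9.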

How the results depend on the processing

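Counts of called genes are out of 75 unless fewer passed the filter. EPDR1 had 0 in all alternatives. FSTL3 (42 lower) had 70 with only the libraries compared, 25 with the length trend removed, 26 with both trends removed, 13 with the vehicle of batch 1 as control and 37 to 68 with 1 library left out; each of its medians stayed negative. With only the libraries compared, the share of all genes called rose too: 28.1% were lower after FSTL3, 39.9% were called between the vehicles and 13.9% after FCN2, and 0% after LBP. With 1 library left out, the genes called lower after FSTL3 ran from 1571 of 11948 to 3114 of 12244. LBP (18 higher) had 0 with limma-voom, 3 without a filter, 0 with only the libraries compared, and 1 to 34 with 1 library left out: 1 without LBP replicate 2, 30 without replicate 3, 34 without replicate 4, and 6 to 8 without any 1 vehicle library. Of all genes, 89 of 12244 were called without LBP replicate 2, 2145 of 12294 without replicate 3 and 1946 of 12333 without replicate 4. Without any 1 library of the vehicle of batch 1, 289 to 432 were. The vehicles (19) had 5 without a filter, 46 with only the libraries compared, 6 with both trends removed and 10 to 44 with 1 library left out, 44 of them without LBP replicate 2, and 10 or 12 without replicates 4 and 3 of batch 1. Of all genes, 3715 of 12244 were called between the vehicles without LBP replicate 2. Without replicates 4 and 3 of batch 1, 857 of 11946 and 868 of 11937 were. FCN2 (1 lower) had 9 with DESeq2 (6 of them higher), 2 with limma-voom, 0 without a filter, 2 with the stricter filter, 12 with only the libraries compared, 0 with the GC trend or both trends removed, 3 with the length trend removed (2 higher), and 0 to 18 with 1 library left out, 18 without LBP replicate 2. FCN2 against EPDR1 (0) had 0 to 5, 5 without LBP replicate 2. Without LBP replicate 2, and chosen after seeing the data, removal of both trends or of the length trend gave 5 (3 higher) or 20 genes for FCN2, 0 or 1 for LBP, 29 or 41 for the vehicles and 3 for FCN2 against EPDR1 with the length trend removed. Of all genes, these fits called 1.4% or 19% for FCN2, 0.302% or 0.809% for LBP and 16.9% or 29.8% for the vehicles. For FCN2 against EPDR1 the share was 4.78% with the length trend removed. Without a filter, 1.29% of all genes were called after LBP, 2.11% between the vehicles and 0.0288% after FCN2. The share after FCN2 was 1.27% with the stricter filter, 1.35% with the length trend removed and 0% with the GC trend or both removed, and that between the vehicles 3.66% with both removed. The cause of these changes was not tested.

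The replicate block gave 50 genes for FSTL3 and 0 for FCN2, LBP and the vehicles, also with both trends removed for these 3. Between the vehicles, which belong to different batches, the block compares fitted levels of replicate 1 and not group means. The vehicle values with the block therefore cannot decide whether the vehicle groups differ. With the block 42.1% of all genes were called for FSTL3, 0.426% for FCN2, 0.0919% for LBP and 0.00835% for the vehicles. The labels do not say whether equal numbers pair the samples. Deviations of same-numbered libraries correlated at -0.13 to 0.33 in 27 pairs, with 10 over 0.1, which does not settle it. Single genes turned sign as follows: with the vehicle of batch 1 as control of FSTL3, Mrpl3 (0.0432), Mrps18c (0.0338) and Mrps9 (0.1329); Mrpl3 after FSTL3 with 1 library left out (-0.0676 to 0.0161, positive without replicate 1 of the vehicle of batch 2); Mrpl12 after LBP with 1 library left out (-0.1474 to 2.4097, negative without LBP replicate 2; -0.022 with both trends removed, -0.19 with the length trend removed); and Mrps34 between vehicles with the block and both trends removed (-0.0281). The last of these values, that of Mrps34, is again a comparison of fitted replicate 1 levels. Depth limits genes with few reads, such as Mrps34, Mrps33 and the 3 not tested.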

Other observations

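Genes that serve the mitoribosome also differed between the vehicles, relative to batch 2 (edgeR adjusted p under 0.05). Of 9 nuclear regulators of mitochondrial biogenesis, Esrra (1.52) and Pprc1 (1.097 on the log2 scale) were higher in batch 1, with Esrra at 19.4, 29.7, 25.7 and 30.6 CPM against 10.2, 10.3, 6.23 and 8.68. Of 13 genes of mitochondrial transcription and mRNA handling, Polrmt (0.95) and Polg (0.69) were higher and Mterf2 lower (-1.37). The initiation factor Mtif2 (-0.71) and the elongation factor Guf1 (-0.52) were lower, as were the rRNA methyltransferase Tfb1m (-1.0) of 24 assembly and modification genes and Aurkaip1 (-0.78) of 5 mitoribosomal proteins with other names. None of 17 mitochondrial aminoacyl-tRNA synthetases was called. After LBP, Mtif2 (0.90), Chchd1 (1.21), Gadd45gip1 (2.63), the pseudouridine synthase Trub2 (1.44), Fars2 (0.77) and the DNA helicase Twnk (0.88) were called higher with LBP replicate 2 and none of these 6 without it.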
